A study of Homo sapiens with 6 samples.

Results

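The peaks described here are stretches of acetylated chromatin that touched protein-coding sequence far from any gene start, and that were called in both untreated and sodium benzoate treated cells. They were chosen by 3 overlaps: a Kac peak of the treated cells on chromosomes 1 to 22 or X was kept if it shared at least 1 bp with a control Kac peak, shared at least 1 bp with a coding exon (CDS) of a protein-coding gene, and did not touch the window of 3 kb either side of any annotated transcription start site (TSS). The rule kept 1247 of the 63282 Kac peaks of the treated cells, and these are called exonic Kac peaks here. Since both Kac lists entered the rule, the Kac values of these peaks are descriptions. Kbz, on these peaks or at the promoters of their genes, did not enter it. Base composition entered only through the demand for coding sequence, and promoters only as windows that a peak must not touch.

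The cells were HepG2, a line from a human liver tumour, grown in DMEM with serum. The treated cells received sodium benzoate (SB) at 10 mM for 24 h, and the control cells received none. Chromatin was cut with micrococcal nuclease and pulled down with a pan antibody against acetylated lysine (Kac) or benzoylated lysine (Kbz), neither of which tells one histone or lysine from another. There were 6 libraries in 6 groups, 1 library per group, and the peak lists of 3 of them entered the work, namely the Kac library of each condition and the Kbz library of the SB cells. The labels state that no peaks were found for control Kbz, and the input libraries were not analysed here. With 1 library per group there is no error between replicates and no test between conditions. The intervals are 95% Wilson intervals for a share and Newcombe intervals for a difference of shares over whole sets. Mean differences within deciles or classes carry a 95% interval by the normal approximation, from the counting error in each decile or class. All these intervals cover counting error only. The lists carry no read totals, so the depth is unknown. Of 12 liver marker genes, 7 had an SB Kac peak in a promoter window, among them HNF4A and FOXA1, while ALB, APOB, FGB, SERPINA1 and FOXA2 had none. Of 8 markers of blood and nerve cells, 4 had one, SPI1 and SYT1 among them, so a Kac peak in such a window did not separate the cell types.

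Acetylation neutralises the charge of histone lysines, loosens their hold on DNA and is read by bromodomain proteins. It is concentrated at promoters and at enhancers, many of which lie within genes. Coding exons make up a small portion of a gene, and a stretch of acetylated chromatin that covers one usually covers intron as well. Benzoylation places an aromatic acyl group on lysine, with benzoyl-CoA as the donor, a compound that liver cells form from benzoate before they join it to glycine.

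The DNA under 4 exonic Kac peaks, all with Kbz, is shown as examples. Each line gives 240 bases of hg38 on the strand of the gene, centred on the largest coding block under the peak whose window holds no annotated UTR base, with coding bases in capitals and intron bases in lower case. STAP1 is shown for the highest Kac fold, the ratio of read density in a peak to the background of the call. BCAS4, PDZD7 and STK32C are shown for the strong Kbz peaks on them. The windows are chr4:67575322-67575561 (plus strand) for STAP1, chr20:50818127-50818366 (plus) for BCAS4, chr10:101015604-101015843 (minus) for PDZD7 and chr10:132222804-132223043 (minus) for STK32C.
STAP1: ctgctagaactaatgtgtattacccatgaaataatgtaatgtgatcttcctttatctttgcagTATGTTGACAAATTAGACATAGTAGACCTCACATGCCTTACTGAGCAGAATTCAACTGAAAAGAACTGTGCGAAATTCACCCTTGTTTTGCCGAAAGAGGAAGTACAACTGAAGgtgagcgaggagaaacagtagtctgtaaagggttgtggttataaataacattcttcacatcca
BCAS4: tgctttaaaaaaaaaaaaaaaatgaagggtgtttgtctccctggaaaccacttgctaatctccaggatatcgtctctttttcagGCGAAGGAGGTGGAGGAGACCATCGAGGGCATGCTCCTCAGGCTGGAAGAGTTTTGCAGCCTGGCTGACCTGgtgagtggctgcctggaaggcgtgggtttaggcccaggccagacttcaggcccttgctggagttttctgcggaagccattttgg
PDZD7: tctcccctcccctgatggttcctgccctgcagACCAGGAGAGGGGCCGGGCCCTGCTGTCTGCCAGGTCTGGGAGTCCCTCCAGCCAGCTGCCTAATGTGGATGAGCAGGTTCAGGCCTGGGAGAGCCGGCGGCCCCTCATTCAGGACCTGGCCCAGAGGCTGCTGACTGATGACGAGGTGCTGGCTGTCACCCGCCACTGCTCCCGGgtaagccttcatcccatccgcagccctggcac
STK32C: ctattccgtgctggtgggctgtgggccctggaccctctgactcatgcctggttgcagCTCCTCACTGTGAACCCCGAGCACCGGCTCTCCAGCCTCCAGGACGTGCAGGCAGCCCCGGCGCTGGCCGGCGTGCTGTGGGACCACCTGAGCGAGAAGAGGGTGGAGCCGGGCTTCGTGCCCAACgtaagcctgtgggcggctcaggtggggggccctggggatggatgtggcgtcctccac
In each window a coding exon stands between intron sequences. The coding run was 114 bases in STAP1, 72 in BCAS4, 176 in PDZD7 and 126 in STK32C. The GC content was 37.9% in the STAP1 window, against 51.7% in BCAS4, 66.7% in PDZD7 and 68.8% in STK32C. Kbz covered all 240 bases of each of the 4 windows. In this they do not stand for all exonic Kac peaks, 790 of which had no Kbz. Windows at other named peaks differed too: that of EML2 was coding in all 240 bases, and that of SEMA3C had no base under Kbz. The PDZD7 window lies under the weaker of the 2 Kbz peaks on that gene and not on its largest coding block.

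Most exonic Kac peaks held 1 short exon inside a longer acetylated stretch. The median peak was 1593 bp long, with a range of 280 to 27855 bp, and together the peaks covered 2.80 Mb. The coding part of a peak had a median of 136 bp, with quartiles of 84 and 225 bp, which was 8.77% of the peak at the median. A single coding block was touched by 949 peaks (76.1%), 2 blocks by 208, 3 by 56, and 4 or more by 34. Intron was touched by 1180 peaks (94.6%). Coding bases made up more than 50% of the peak in 53 peaks (4.25%), and 6 peaks lay wholly in coding sequence. The peaks are thus exonic by contact more than by content. The nearest TSS lay at a median of 8167 bp.

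The exons under these peaks were of ordinary length, and last exons were touched somewhat more often than internal ones. By the canonical transcript of each gene, 849 peaks (68.1%) touched internal coding exons, 239 (19.2%) reached a last coding exon and 32 (2.57%) a first one. Another 8 peaks lay on genes with a single coding exon, and 119 touched coding sequence only of other transcripts. Of the 84472 canonical coding exons that lie away from promoter windows, 86.4% are internal and 11.2% are last. An exonic Kac peak touched 1529 of these exons (1.81%, interval 1.72 to 1.90). The share was 2.49% (2.19 to 2.82) of last exons and 1.72% (1.62 to 1.81) of internal ones. One peak can touch several neighbouring exons, so exons are not independent and these intervals are too narrow. Last exons were also longer, with a median of 150 bp against 124 bp for internal ones, which gives more room for a touch. Touched exons had a median length of 127 bp, and all canonical coding exons away from promoter windows 126 bp. Along the gene from start to end, the peak centres had a median position of 73.8%, against 68.3% for those exons.

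Shared Kac peaks covered a slightly smaller portion of coding than of intron sequence. Peaks away from promoters that were shared by both Kac lists covered 1.57% of 15.6 Mb of coding bases and 1.98% of 931 Mb of intron bases. A broad peak joins many neighbouring bases, so neighbouring bases are not independent and no interval is given for these shares.

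The rule asked for a control Kac peak on each stretch, and that peak usually covered most of it. A single control Kac peak lay on 1183 exonic peaks (94.9%), 2 lay on 59 and 3 or more on 5. The median peak had 81.1% of its bases under control Kac, and 334 peaks (26.8%) lay wholly under it. The strongest control peak on each was 1661 bp long at the median, and the SB peak 1593 bp, and 598 SB peaks (48.0%) were longer than that control peak. In its own list the median peak stood at the 52.3 percentile of fold after SB and at the 56.7 percentile in control, so neither library held these peaks at its extremes. The deposited SB Kac fold had a median of 3.03, quartiles of 2.70 and 3.65, and a range of 2.11 to 7.67.

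Exonic Kac peaks of the treated cells were found again in control a little more often than intronic ones. Without the requirement of a control peak there were 1922 such peaks, of which 64.9% (62.7 to 67.0) had control Kac. The share was 58.4% (57.7 to 59.2) of intronic peaks and 72.5% of all SB Kac peaks. Taken from the control side, 60.6% (58.5 to 62.6) of 2143 exonic peaks away from promoters had SB Kac, against 57.4% (56.6 to 58.1) of intronic ones. Among shared peaks, exonic ones were longer than intronic ones (medians 1593 and 1177 bp), which gives more room for an overlap. Length was not held equal in these shares. Of the 675 exonic SB Kac peaks without control Kac, 7 (1.04%) overlapped Kbz. Over the whole SB Kac list 21390 peaks overlapped Kbz. Of those, 14584 were shared promoter peaks and 6462 were shared peaks away from promoters. Kbz was therefore rare on peaks without control Kac in general, and not only on exonic ones.

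**Figure D1:**
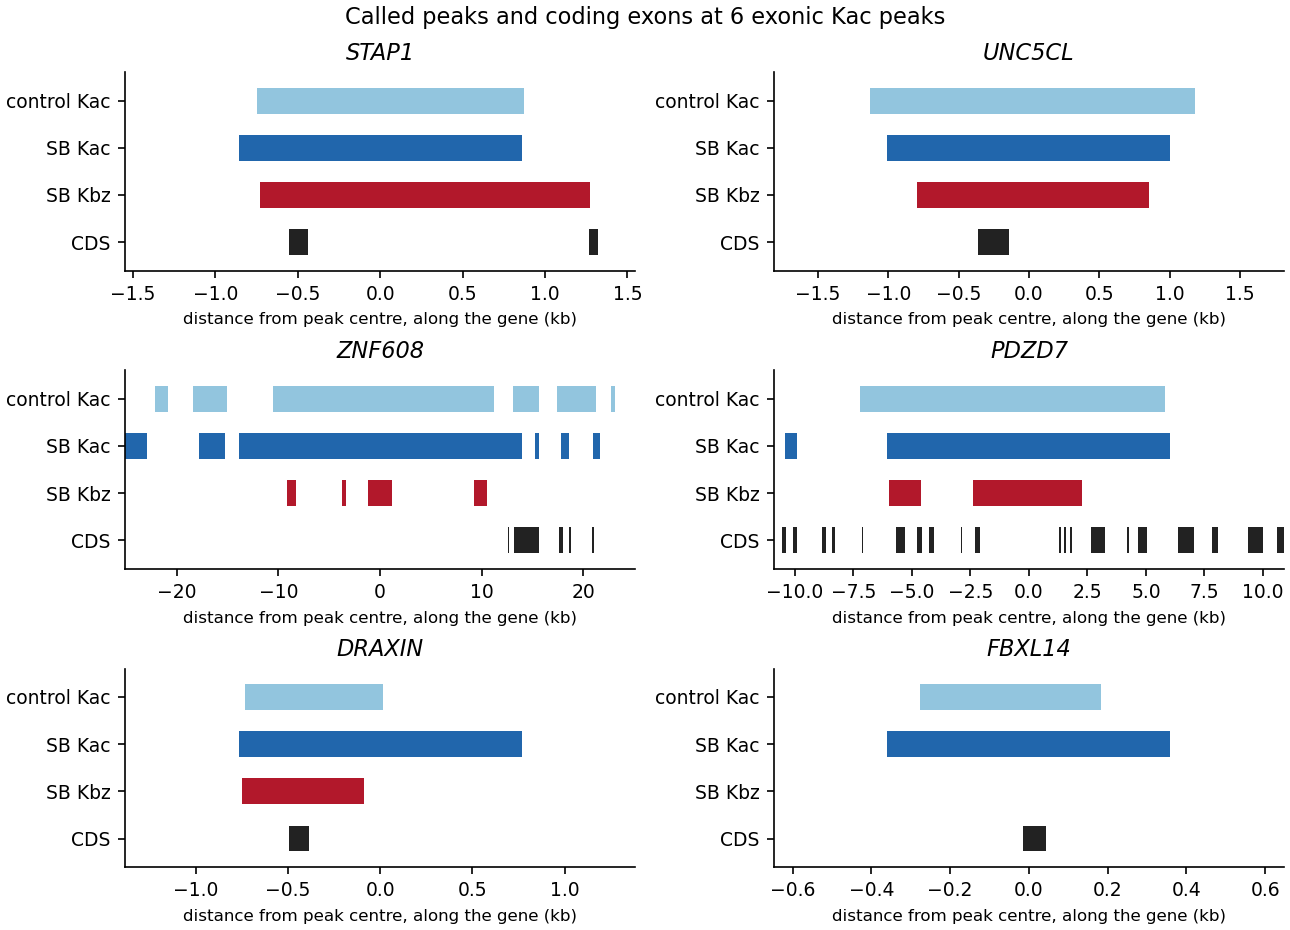
Called peaks of the 3 libraries and coding blocks (CDS, any transcript) at 6 exonic Kac peaks, by distance from the centre of the SB Kac peak in kb, read in the direction of the gene. Bars are called peaks and carry no height. Kbz lies on the coding block at STAP1, UNC5CL and DRAXIN and on 988 of the 2368 coding bases at PDZD7, beside the coding blocks at ZNF608, and nowhere at FBXL14.

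Benzoylation lay on 457 of the 1247 exonic Kac peaks, which is 36.6% (34.0 to 39.4). The share was 33.8% of all SB Kac peaks and 27.8% of all shared Kac peaks away from promoters. The exonic share was thus above that of shared distal peaks in general. The whole list is an unlike set, since only 72.5% of its peaks had control Kac and Kbz was rare on the others. Its 33.8% is therefore no like background for exonic peaks, which all had control Kac. Of 9666 shared peaks on introns with no coding base, 2009 overlapped Kbz, a share of 20.8% (20.0 to 21.6). Of 11983 shared peaks outside protein-coding genes 32.6% (31.8 to 33.5) did, and of 22691 shared promoter peaks 64.3% (63.6 to 64.9). Exonic peaks therefore carried Kbz 15.9 percentage points (13.1 to 18.7) more often than intronic peaks, 4.03 points (1.26 to 6.86) more often than peaks outside genes, and 27.6 points less often than promoter peaks.

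Kbz was common on strong Kac peaks and rare on weak ones in every set, so the sets were also compared at like Kac fold. All SB Kac peaks were ranked by fold and cut into 10 deciles. In the lowest decile Kbz lay on 4 of 84 exonic peaks (4.76%) and on 2.31% of intronic peaks. In the sixth it lay on 27.6% of 156 exonic and 13.5% of intronic peaks, in the eighth on 71.5% of 165 and 55.8%, and in the highest on 98.3% of 60 and 97.6%. The gap between exon and intron was thus widest in the middle and upper deciles and closed at the top, where nearly every peak had Kbz. The exonic share was the higher in 10 of 10 deciles, by 9.89 points (7.77 to 12.01) on average, weighted by the number of exonic peaks. Where Kbz had to cover at least 50% of the Kac peak, the differences were smaller, 6.59 points (4.64 to 8.74) over all peaks and 3.65 points (1.89 to 5.40) within deciles of fold.

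Length and base composition moved with the same contrast. Exonic peaks were longer than intronic ones (medians 1593 and 1177 bp), and a longer peak has more room for an overlap. Within deciles of length the exonic share was higher than the intronic one by 11.9 points and within deciles of GC content by 14.2 points, in 10 of 10 deciles each. Within 25 classes of fold and length together, the difference was 9.03 points (6.88 to 11.2), with the exonic share the higher in 24. The part of read depth and mappability in this difference was not tested.

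Peaks outside genes and exonic peaks were less clearly apart. The difference was 4.95 points (2.84 to 7.05) within deciles of fold. Within deciles of length it was -2.82 points (-5.55 to -0.0909), so its direction turned. Within classes of fold and length together it was 2.03 points (-0.125 to 4.18). Against promoter peaks, the difference of -27.6 points shrank to -2.06 points (-4.14 to 0.0143) within deciles of fold, to -2.66 points (-4.76 to -0.556) within classes of fold and length, and to -3.88 points (-5.94 to -1.83) within deciles of −log10 q. It was -21.2 points within deciles of length and -23.5 points within deciles of GC content. The -2.06 points within deciles of fold average over differences of both signs, with the exonic share the higher in 5 of 10 deciles. In the third decile 13.6% of exonic and 6.19% of promoter peaks had Kbz, and in the seventh 39.0% and 51.4%. The small mean therefore does not show that the 2 sets were alike at like fold.

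**Figure D2:**
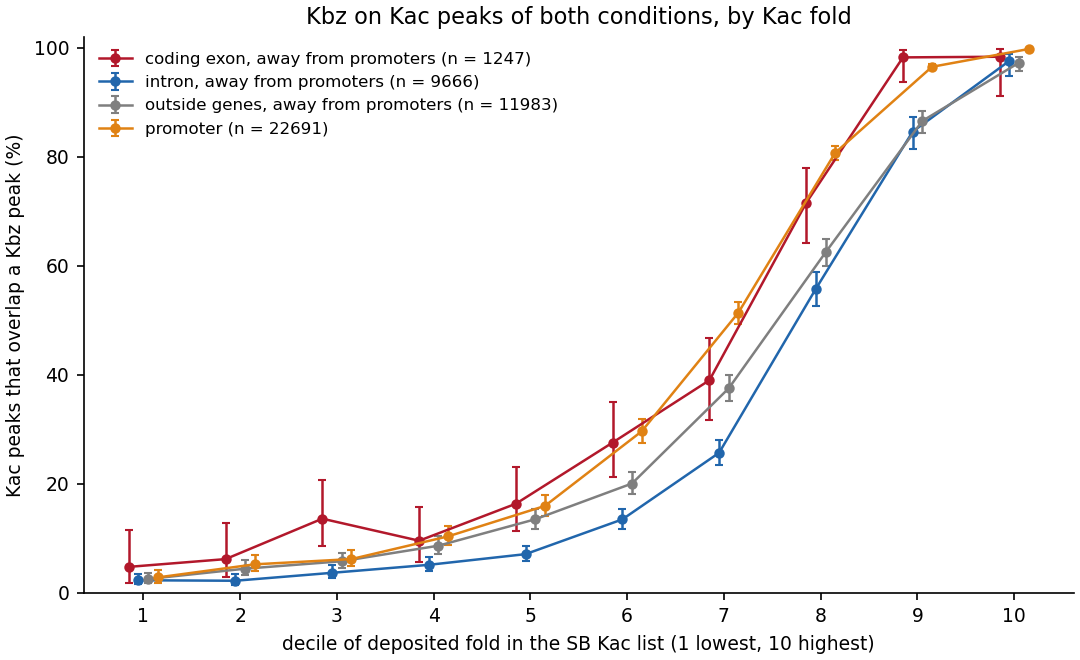
Share of Kac peaks that overlap a Kbz peak (vertical axis, percent, with 95% Wilson intervals as bars) in each decile of SB Kac fold (horizontal axis, lowest to highest) for shared Kac peaks on coding exons, on introns, outside genes and at promoters. The exonic points lie above the intronic points in 10 of 10 deciles, with 71.5% against 55.8% in the eighth.

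The difference between exonic and intronic peaks was seen at each distance from the gene start and at each peak length. Between 3 and 5 kb from a TSS, 38.1% of 318 exonic and 20.1% of intronic peaks had Kbz, and between 20 and 50 kb 34.1% of 185 and 20.3%. Beyond 50 kb the shares were 10 of 40 exonic peaks (14.2 to 40.2%) and 18.9% (16.4 to 21.7) of intronic ones, with overlapping intervals. For peaks of up to 0.5 kb the shares were 15.0% (9.31 to 23.3) and 8.08% (6.80 to 9.57), which just overlap, and for those over 4 kb 65.4% (57.8 to 72.3) and 55.1% (51.5 to 58.7). Intronic peaks that came within 500 bp of a coding exon without touching it had Kbz in 24.2% of 422 cases (20.3 to 28.5). That value lies near the 20.5% of intronic peaks over 2 kb from any coding exon and below the exonic 36.6%. Exonic peaks with little coding sequence were less clearly apart from it. Those with up to 50 coding bp had Kbz in 27.8% (21.1 to 35.6) and those with over 50 and up to 100 bp in 28.3% (23.1 to 34.2). Both intervals overlap that of the 422 peaks. Fold and length were not held equal here.

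Peaks with more coding sequence carried Kbz more often. The share was 27.8% (21.1 to 35.6) of the 144 peaks with up to 50 coding bp and 28.3% (23.1 to 34.2) of the 251 with over 50 and up to 100 bp. It was 36.7% (32.5 to 41.1) of the 485 peaks with over 100 and up to 200 bp, 42.8% (37.2 to 48.6) of the 285 with over 200 and up to 500 bp, and 56.1% (45.3 to 66.3) of the 82 with more. The median Kac fold stood between the 44.7 and 57.1 percentile in these 5 classes. Peak length was not held equal here. By kind of exon, the share was 34.4% (31.3 to 37.7) for internal, 41.4% (35.4 to 47.8) for last and 34.4% (20.4 to 51.7) for first coding exons, with overlapping intervals.

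Within a peak, Kbz was narrower than Kac. Of the 457 peaks with Kbz, 432 held 1 Kbz peak, 21 held 2 and 4 held 3 or more. At the median, Kbz covered 41.1% of the Kac peak. Averaged over these 457 peaks, Kbz covered 45.7% of the coding bases and 45.7% of all bases. Pooled over their bases, where long peaks count for more, the shares were 43.7% of coding and 33.5% of all bases, so a higher coverage of coding bases appeared only in the pooled count. Kbz touched a coding base in 267 of them (58.4%), which is 21.4% of all exonic Kac peaks, covered the whole coding part in 148 and lay only on noncoding bases in 190. The 488 Kbz peaks involved are 2.01% of the 24308 in the list. Their median length was 817 bp, against 1097 bp over the list.

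The exonic Kac peaks with Kbz were themselves the stronger ones. Their median stood at the 75.7 percentile of SB Kac fold and at 1987 bp, against the 39.1 percentile and 1418 bp for the 790 without Kbz. Their median GC content was 54.0%, against 51.4%.

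Exonic Kac peaks resembled promoter peaks in GC content but not in CpG content. The median GC content was 52.8% (quartiles 43.98 and 58.03) for exonic, 46.1% for intronic and 47.4% for peaks outside genes, against 53.3% for promoter peaks. More than 50% GC was found in 59.3% of exonic and 34.1% of intronic peaks. Coding exons are richer in GC than introns in general, and the rule itself asks for coding sequence. CpG, the dinucleotide that is methylated and depleted in most of the genome, was measured as observed over expected count. Its median was 0.253 in exonic, 0.215 in intronic and 0.444 in promoter peaks. A ratio over 0.6 together with a GC content over 50%, as is usual for CpG islands, was found in 2.81% of exonic and 23.6% of promoter peaks.

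GC content did not order the Kbz share evenly. Exonic peaks of up to 40% GC had Kbz in 21.5% of 195 cases (16.3 to 27.8), those over 50% and up to 55% in 43.4% of 251 (37.4 to 49.6), and those over 60% in 39.6% of 197 (33.0 to 46.6). The lowest class stood apart from those over 50%, which did not differ from each other beyond their intervals. The intronic share was 15.1% in the lowest of these classes, 23.3% in the middle one and 24.3% in the highest.

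**Figure D3:**
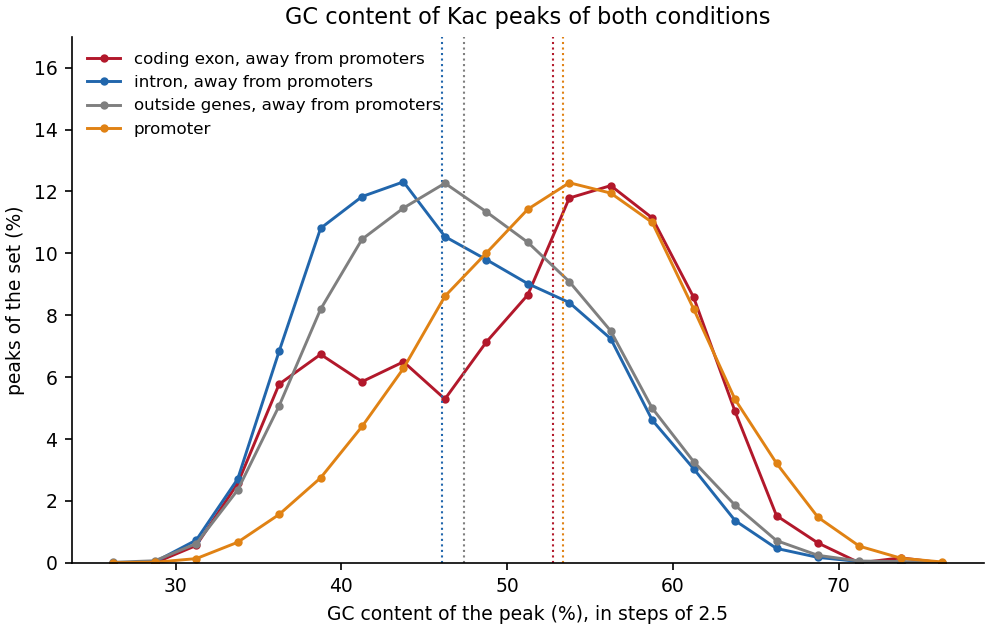
GC content of shared Kac peaks (horizontal axis, percent, in steps of 2.5) against the percent of the peaks of each set (vertical axis) for coding exons, introns, regions outside genes and promoters, with the medians as dotted lines. The exonic curve has its main mode with the promoter curve (medians 52.8% and 53.3%) and a shoulder at lower GC, where the intronic curve is highest.

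The strongest single site was in STAP1, which encodes an adaptor of signalling in blood cells. Its 1718 bp peak (chromosome 4, 67575079 to 67576796) had a Kac fold of 7.67 after SB (99.4 percentile of its list) and 7.59 in control (99.9), and a Kbz fold of 6.41 (91.9). It covered coding exon 3 of 9, and Kbz lay on 92.4% of it. Next by Kac fold came UNC5CL, a death domain protein related to netrin receptors (chromosome 6, 41027230 to 41029241), with folds of 7.02 after SB, 5.59 in control and 7.31 for Kbz. Both genes were high in all 3 lists.

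EML2, which encodes a microtubule-binding protein, had a Kac fold of 6.999 after SB, 6.77 in control and a Kbz fold of 6.16 (chromosome 19, 45606830 to 45607991), with 495 coding bases that belong only to other transcripts than the canonical one. PRELP, a proteoglycan of the extracellular matrix, had 6.75, 6.16 and 7.61 (chromosome 1, 203486877 to 203488810), and the peak touched only 2 coding bases, neither under Kbz. DRAXIN, a secreted axon guidance protein, had 6.72, 6.39 and 9.25 (chromosome 1, 11719313 to 11720847), the highest Kbz fold among the exonic peaks. Each of these 5 strongest peaks carried Kbz, as did 98.3% of the exonic peaks in the top decile of fold.

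High Kbz folds were also found at ZNF185, a LIM domain protein of the actin skeleton (8.85, chromosome X, 152957897 to 152962070), at BCAS4 (8.61, chromosome 20, 50817981 to 50819316), at PDZD7 (8.22, chromosome 10, 101007480 to 101019574) and at the kinase gene STK32C (7.75, chromosome 10, 132222712 to 132225362). BCAS4 lay wholly under both Kbz and control Kac, with Kac folds of 6.63 after SB and 6.13 in control. At PDZD7, a scaffold of hair cell stereocilia that lies in the Usher protein complex, the peak ran over coding exons 7 to 16 of 16 and held 11 coding blocks. There 2 Kbz peaks covered 50.2% of the peak and 988 of its 2368 coding bases. STK32C had Kac folds of 6.34 after SB and 6.54 in control.

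Strong exonic Kac without Kbz was found at FBXL14, an F-box subunit of ubiquitin ligases (SB Kac fold 5.15, 90.6 percentile, chromosome 12, 1566436 to 1567154). It was followed by SEMA3C, a secreted semaphorin (4.25, chromosome 7, 80747696 to 80753607), KBTBD11 (4.15, chromosome 8, 2000333 to 2001399), TGFBR3, the TGF-beta co-receptor betaglycan (4.15, chromosome 1, 91731368 to 91735184), and MLLT10, a cofactor of the histone methyltransferase DOT1L (4.08, chromosome 10, 21726885 to 21729801). FBXL14 stood at the 58.9 percentile in control, SEMA3C at 76.2, KBTBD11 at 47.4, TGFBR3 at 75.1 and MLLT10 at 59.0. All 5 thus ranked higher after SB than in control. They were picked for a high SB value, which favours such an order.

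The longest exonic Kac peaks carried Kbz beside the exons and not on them. The peak in ZNF608, a zinc finger gene, was 27855 bp long and held 871 coding bases and 4 Kbz peaks, which covered 17.9% of it and 0 coding bases. Those of SEMA3C (21099 bp), SKAP1, a T cell adaptor (20171 bp), ETV7, an ETS family transcription factor (15869 bp), and CDH23 (14584 bp) likewise had Kbz over 29.8%, 21.8%, 10.3% and 4.90% of their bases and over 0 coding bases. These peaks held between 43 and 871 coding bases each, so a coding base was a small target in all 5.

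Among the peaks with the most coding bases, some were nearly or wholly coding. ZNF469, a large zinc finger gene, had a 3161 bp peak that was all coding (chromosome 16, 88433936 to 88437096), with a Kac fold of 2.65 and Kbz on 104 bases at one edge. TACC2, which encodes a coiled-coil protein of centrosome and microtubules, had a 2220 bp peak that was all coding and had no Kbz, at the 9.74 percentile of SB Kac fold and the 3.02 percentile in control. FRMPD1, a scaffold with FERM and PDZ domains, had 2020 coding bases in a 3487 bp peak with Kbz on 42.7% of it. ANKRD35, an ankyrin repeat protein, had 1753 coding bases and no Kbz.

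The exonic Kac peaks lay on 1049 of 19970 protein-coding genes (5.25%). One peak each was found on 886 of these genes, 2 on 120, 3 on 23, and 4 to 7 on 20. Long genes were hit more often: 9.29% (8.63 to 10.0) of genes over 50 kb and 3.18% (2.89 to 3.49) of shorter ones had such a peak. The median length was 69.3 kb for genes with one and 27.5 kb for all genes. By the annotation 1227 peaks touched the coding sequence of 1 gene and 19 that of 2, where the peak cannot be given to either.

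CDH23, the cadherin of the tip links of hair cells, held the most peaks, 7 in 419 kb of gene, 4 of them with Kbz. Their Kac fold lay between 2.47 and 4.09. The peaks near its end, on coding exons 55 to 56 and 66 to 67 of 69, had Kbz on 306 and 166 coding bases. Next came SEMA3C, SCUBE1, a secreted protein with EGF-like repeats, and CUBN, an endocytic receptor for vitamin B12 bound to intrinsic factor, with 6 peaks each. Kbz lay on 1 peak of SEMA3C, 0 of SCUBE1 and 2 of CUBN. SYTL3, a Rab27-binding protein of vesicle traffic, LRP1B, a large receptor of the LDL receptor family, and COL19A1, a collagen chain, had 5 peaks each, of which 4, 0 and 1 carried Kbz. The 6 peaks of SCUBE1 had SB Kac folds of 2.63 to 2.88, below the exonic median of 3.03. Peaks within one gene therefore differed in Kbz from one another, and genes with many peaks ranged from none with Kbz to most.

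The promoters of these genes offer a separate readout. A Kbz peak lay in a promoter window of 696 of the 1049 genes, which is 66.3% (63.4 to 69.1), against 64.8% of all protein-coding genes. A promoter SB Kac peak was found in 86.4% (84.2 to 88.3) of them and in 75.9% of all genes. Genes with an exonic Kac peak thus had acetylated promoters more often, and benzoylated ones about as often, as genes in general. Among genes over 50 kb, promoter Kbz was found in 71.3% (67.6 to 74.7) of those with an exonic peak and in 73.0% (71.9 to 74.1) of those without.

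Kbz on an exonic peak did not come with more frequent Kbz at the promoters of the same gene. Of the 417 genes with Kbz on an exonic peak, 60.4% (55.7 to 65.0) had promoter Kbz. Of the 632 genes whose exonic peaks all lacked Kbz, 70.3% (66.6 to 73.7) had it. The difference was -9.82 points (-15.7 to -3.95). Median gene length was alike, 66.6 and 70.9 kb. Promoter Kac was found in 84.9% (81.1 to 88.0) and 87.3% (84.5 to 89.7). CDH23, CUBN and SYTL3 are examples with Kbz on exonic peaks and none in a promoter window.

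Gene families were counted from lists of names, beside the 5.25% of all genes. Of the 1049 genes with an exonic Kac peak, 417 (39.8%) had Kbz on one. Collagens, the fibrous proteins of the matrix, had an exonic Kac peak on 10 of 44 genes (22.7%, 12.8 to 37.0), with Kbz on 4 of the 10. ABC transporters, which pump lipids, bile salts and drugs, had one on 10 of 45 (22.2%, 12.5 to 36.3), with Kbz on 5. Growth factor, Notch and LRP receptors had one on 6 of 31 (19.4%, 9.19 to 36.3), with Kbz on 4. All 3 families consist of long genes, with medians of 145, 75.1 and 69.0 kb against 27.5 kb over all genes, so gene length moved with these shares. Their coding sequence, which the rule asks for, was long as well, with medians of 4.48, 3.98 and 4.07 kb against 1.27 kb. Solute carriers, the membrane transporters of small molecules, had one on 27 of 337 (8.01%, 5.56 to 11.4), with Kbz on 9. Their genes too were longer than all genes, with medians of 38.3 kb of gene and 1.62 kb of coding sequence. These Kbz counts are small and are read beside the 39.8% only as values.

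Liver genes were not set apart by these peaks. Secreted liver proteins had an exonic Kac peak on 3 of 46 genes (AFP, AHSG and SERPINF2), liver transcription factors on 2 of 26 (RXRA among them), and genes of lipid and cholesterol synthesis and uptake on 3 of 32 (ACACA, LSS and NPC1L1). Writers, erasers and readers of lysine acetylation had 2 of 42 (HDAC11 and NCOA1), neither with Kbz. The intervals of all 4 shares hold the 5.25% of all genes. Neuronal markers had 2 of 17 (RBFOX3 and SLC17A7, neither with Kbz). Blood markers had 0 of 20, with a Wilson upper limit of 16.1%, or of 15.0% if a count of 0 is taken to allow up to 3.

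Zinc finger genes of chromosome 19 and olfactory receptors had an exonic Kac peak less often than the 5.25% of all genes, outside their intervals. Zinc finger genes of chromosome 19 had an exonic Kac peak on 2 of 246 genes, ZNF333 and ZNF541 (0.813%, 0.223 to 2.92), both genes with Kbz on one. Olfactory receptors had 0 of 415, with a Wilson upper limit of 0.917%, or of 0.723% by the limit of 3 counts. Their median gene length is 2.38 kb, and a gene of that length lies wholly within the 3 kb that the rule left out. For such genes the 0 was fixed by the rule and says nothing about acetylation. Keratins are short as well, with a median of 7.10 kb, while the zinc finger genes have a median of 25.9 kb. Keratins had 0 of 55, with upper limits of 6.53% and 5.45%, which hold the share of all genes. The 22 clustered protocadherins of 53 that were counted all owed it to 1 peak of 286 bp on an exon that the PCDHG genes share (chromosome 5, 141494653 to 141494938), which had no Kbz.

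**Figure D4:**
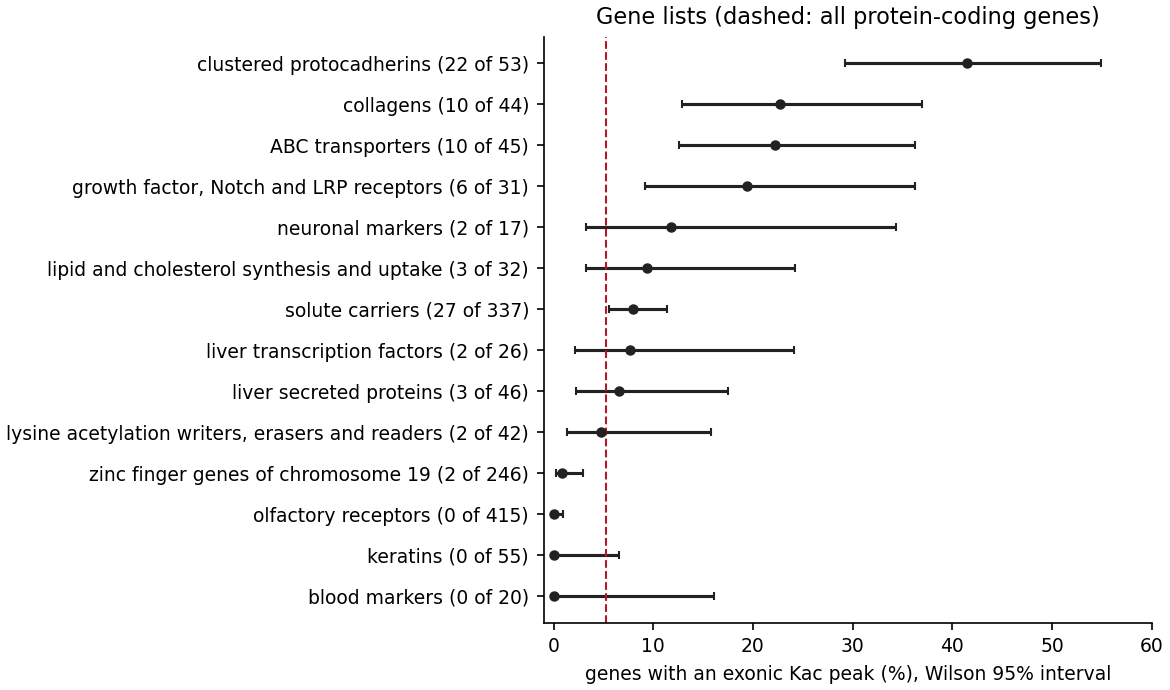
Share of the genes of each list with an exonic Kac peak (horizontal axis, percent, with 95% Wilson intervals), by list, with the 5.25% of all protein-coding genes as a line. Collagens (22.7%) and ABC transporters (22.2%) stand above the line, zinc finger genes of chromosome 19 (0.813%) and olfactory receptors (0 of 415) below it, and the protocadherin value rests on 1 peak. Olfactory receptor genes have a median length of 2.38 kb, within the 3 kb that the rule left out.

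Single members of these lists differed in how the 3 readouts ranked. PDGFRB, the beta receptor of platelet-derived growth factor, had an SB Kac fold of 5.40 (92.3 percentile) and stood at the 66.4 percentile in control. Kbz covered 99.5% of its 1314 bp peak and all 336 coding bases (chromosome 5, 150129573 to 150130886). AHSG, the plasma protein fetuin-A, had a fold of 4.14 (79.8 percentile), a control percentile of 84.7 and Kbz on 84.4% of the peak, all 167 coding bases included (chromosome 3, 186616660 to 186617775). In both genes exon, Kac and Kbz coincided.

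SLC13A3, a carrier of dicarboxylates, had an SB Kac fold of 5.66 and a control percentile of 99.4, and SLC43A2, a carrier of neutral amino acids, 5.30 and 87.0. Kbz covered 64.5% and 21.5% of these peaks and 0 coding bases in each. COL6A6, a chain of collagen VI, had 863 coding bases in an 8393 bp peak, 347 of them under Kbz, while COL27A1 had a Kac fold of 3.99 and no Kbz. NPC1L1, the cholesterol uptake protein blocked by ezetimibe, had a low Kac fold of 2.73 (33.0 percentile) beside a Kbz fold of 5.79 (86.6 percentile of the Kbz list). RXRA, the partner of many nuclear receptors, had a Kac fold of 3.63 and Kbz on 15.9% of the peak, on 0 coding bases.

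The peaks were spread unevenly over the chromosomes. Per Mb of coding sequence away from promoters there were 79.8 peaks over all chromosomes, with the most on chromosome 22 (152), chromosome 17 (135) and chromosome 10 (128), and the fewest on chromosome 18 (28.9) and chromosome X (30.4). As a share of shared peaks away from promoters, exonic peaks made up 7.02%, 7.05%, 5.72%, 2.02% and 4.02% on these chromosomes, in that order. Chromosome 10 held 4.69% of that coding sequence, 8.36% of intronic and 5.87% of all SB Kac peaks. Its high density was thus not particular to exonic peaks. On chromosome 19, which is dense in genes, 103 exonic peaks made up 16.9% of its shared peaks away from promoters, against 5.37% over all chromosomes. Kbz lay on 58.3% (48.6 to 67.3) of them. The share there was 35.5% of intronic and 52.0% of all SB Kac peaks, so Kbz was more frequent on this chromosome in each of these sets. Kac fold was higher there as well. Its median percentile was 61.7 for exonic and 54.7 for intronic peaks, against 52.3 and 47.0 over all chromosomes. Fold was not held equal in these shares. Exonic peaks of chromosome 22 had Kbz in 8 of 42 cases (9.98 to 33.3%). The exonic share of Kbz lay above the intronic one on 19 of 23 chromosomes.

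**Figure D5:**
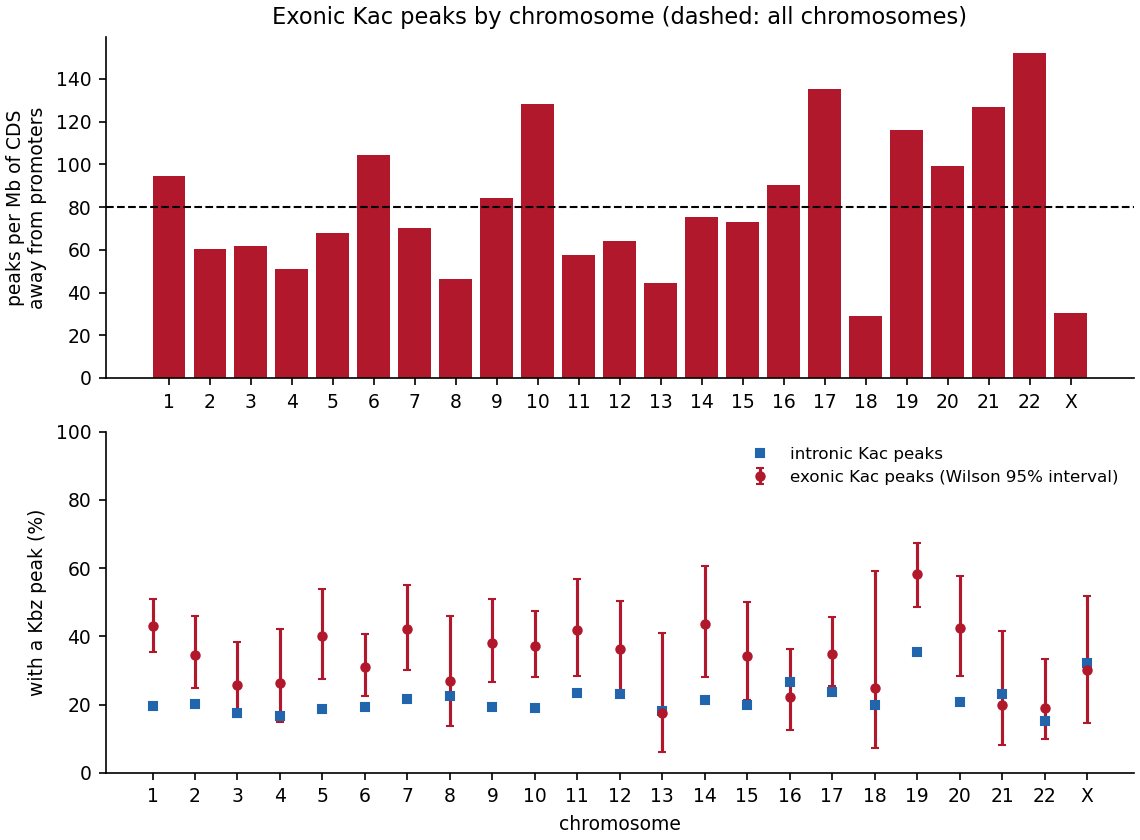
Exonic Kac peaks by chromosome (horizontal axis): upper panel, peaks per Mb of coding sequence away from promoters, with the 79.8 of all chromosomes as a dashed line, and lower panel, the share with Kbz in percent for exonic (circles, 95% Wilson intervals) and intronic peaks (squares). Exonic peaks lie above intronic ones on 19 of 23 chromosomes, and chromosome 19 has the highest exonic share (58.3%).

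The limits of the rule passed through a continuous range of peaks. Just inside the promoter limit were peaks in REM2 (3007 bp from the nearest TSS), CROCC2 (3011 bp) and AP1M2 (3017 bp). Just outside it were peaks in PHGR1, AGBL1 and SYTL2, which reached 3, 14 and 20 bp into a window. A single coding base brought in peaks of MASP2, UBE2U and STAM, and a distance of 1, 2 and 3 bp to the nearest coding base left out peaks of MTA3, POFUT1 and ADGRL2. For control Kac, SLC1A4, CPNE5 and LAMC3 were inside with 17, 22 and 42 bp under a control peak. A peak shared by RBCK1 and TBC1D20, 1 of NEO1 and 1 of SPTBN5 were outside, at 17, 27 and 47 bp from one. SB Kac folds on the inside ranged from 2.57 (AP1M2) to 5.59 (REM2), and on the outside from 2.34 (NEO1) to 5.47 (AGBL1).

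The count of exonic Kac peaks and the level of their Kbz share depended on how strict the lists were read. Requiring a −log10 q of at least 5 in the 3 lists left 247 peaks, of which 53.4% had Kbz, and requiring Kbz over at least 50% of the Kac peak gave a share of 14.8%. The share over all SB Kac peaks is not given for these settings, so neither value can be set against the share of the whole list.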

How the data were processed

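The 3 deposited peak lists (control Kac, SB Kac and SB Kbz) hold 70326, 63282 and 24308 peaks. Per the labels and the methods of the study, the authors aligned reads with Bowtie2 2.2.6 to hg38, kept unique reads, removed duplicates with SAMtools 0.1.19 and called peaks in each library with MACS2 2.1.1 at an FDR of 0.01. The broad setting and the background track are not given in the sources used here. The deposited fold, a ratio to the background, was ranked only inside one list at a time. Both −log10 columns that the authors deposited, for p and for q, average over a broad peak. No list went below a −log10 q of 1.31, which corresponds to a q of 0.0487 (control Kac), 0.0494 (SB Kac) and 0.0485 (Kbz), past the stated FDR. The deposited score, an integer for display, was not used. A broad peak joins nearby enriched stretches, which makes an overlap with an exon or with Kbz more likely.

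Genes came from GENCODE 44 and sequence from hg38. 3 control peaks on other sequences were left out. An overlap was at least 1 bp. Intronic peaks touched an intron of a protein-coding gene and no coding base. The software was pandas 2.3.3, numpy 2.4.6, pysam 0.24.0, scipy 1.17.1 and matplotlib 3.10.9 under Python 3.11.15, and overlaps were tested on simulated data with known answers. Named genes were the 5 peaks with the highest SB Kac fold, the greatest length, the most coding bases, the highest Kbz fold, and the highest SB Kac fold without Kbz, the 5 genes with the most peaks (with those tied on the number), the 2 strongest genes of each list, and the 3 peaks nearest each limit. A few of these are not reported here. The members and gene lists were chosen with earlier results of these data known. Alternatives changed the q minimum, promoter window, annotation, overlaps, merging of peaks and strata. With 1 library per group, no replicate could be left out, and depth per sample is unknown.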

Additional observations from a re-analysis of the deposited data

How the results depend on the processing

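Of 68 recomputed values of 6 results, 47 stayed near the reported value, 21 moved and 0 reversed. The limit for the number of peaks was wide, a factor of 1.5. Counts of 856 (at least 100 coding bp) and 1797 (promoter window of 1 kb) were thus taken as near. The 47 also include the values for merged peaks, which could not change. The reported values were 1247 peaks, 36.6% with Kbz, 15.9 points above intronic peaks, 9.89 points within deciles of fold, a median GC content 6.66 points higher, and 66.3% of genes with promoter Kbz. A minimum −log10 q of 2 gave a Kbz share of 41.9% and a GC difference of 5.62 points. With at least 5 there were 247 peaks, 53.4% with Kbz, 12.8 points within deciles, a GC difference of 5.05 points and 37.9% of genes. A promoter window of 1 kb gave 60.2% of genes, and one of 5 kb gave 70.4% and a GC difference of 5.62 points. With at least 100 coding bp the values were 40.5% with Kbz, 19.8 points, 12.4 points within deciles and a GC difference of 7.56 points. With at least 50% of the peak under control Kac 41.5% had Kbz. Requiring Kbz over at least 50% of the peak, or on the TSS itself, gave 14.8%, 6.59 points, 3.65 points within deciles and 47.3% of genes, and requiring it on a coding base gave 21.4%. Merging peaks within 1 kb changed nothing, since the smallest gap in each list was 1121 bp. Strata chosen after seeing the data gave 14.2 points within deciles of GC. Without chromosome 19, also chosen after seeing the data, 1144 peaks remained, 34.7% with Kbz and 9.57 points above intronic peaks within deciles. For the values that moved, the cause was not tested beyond what each alternative itself asks for. Shares over all peaks or all genes are not given for the alternatives. The Kbz shares and gene shares here therefore cannot be set against those of all peaks or all genes above. Differences from intronic peaks were taken within the same setting. No paired analysis was possible because there is 1 library per group. Unknown depth limits every share, since a deeper library gives more peaks.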

Other observations

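The windows of 500 bp at the centres of the exonic Kac peaks were searched on both strands for the letters of 4 factors known from liver or enhancer chromatin. TGANTCA, the AP-1 site, was found in 18.1% (16.1 to 20.4) of exonic, 22.4% (21.5 to 23.2) of intronic and 13.2% (12.8 to 13.7) of promoter windows. TGTTTAC, a core of FOXA sites, was found in 6.01% (4.83 to 7.47) of exonic, 8.45% (7.91 to 9.02) of intronic and 5.27% of promoter windows. For both, the exonic share lay between those of promoter and intronic windows. CAAAGTCCA, an HNF4 site, was found in 5 exonic windows (0.401%) and TTGCGCAA, a C/EBP site, in 2 (0.160%), too few to order the sets. Kbz lay on 32.7% of the exonic peaks with an AP-1 match and on 37.5% of those without, and on 34.7% and 36.8% for FOXA. These are matches of letters and not bound sites.

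On chromosome 19, 3 genes had 4 exonic Kac peaks each, all 4 with Kbz: GRIN2D, a subunit of NMDA glutamate receptors, RYR1, the calcium release channel of skeletal muscle, and SPTBN4, a beta spectrin of axons. They were picked after their values were seen. Their highest SB Kac folds were 4.58, 5.68 and 5.67. GRIN2D and SPTBN4 had Kbz in a promoter window as well, and RYR1 had none.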
